A study of Drosophila melanogaster with 9 samples.

Results

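Small RNAs from the 3′ untranslated regions (UTRs) of 8 Drosophila melanogaster eggshell genes were examined in 9 ovary libraries. The genes were 5 chorion genes (Cp15, Cp18, Cp19, Cp36 and Cp38) and 3 vitelline membrane genes (Vm26Aa, Vm26Ab and Vm34Ca). They were taken as a named list and found by the RefSeq transcript identifiers of their 3′ UTRs, which gave 10 of the 8510 features tabulated for each strand, 6 of them chorion and 4 vitelline membrane. The libraries were made from total RNA of egg chambers of middle to late stages, dissected from adult females 3 to 5 days old, and there were 3 libraries each for enok2, enok1 and WT. All females, the WT controls included, carried hs-Flp over + and an FRTG13 chromosome with ovo[D1-18]. The opposite FRTG13 chromosome carried the enok[2] allele, the enok[1] allele or neither. After heat shock of the larvae, recombination at FRTG13 gave germline cells that had lost ovo[D1-18], and only egg chambers with such germline clones pass the early stages. The enok gene encodes a histone acetyltransferase. The enok[1] allele gives a truncated protein, while enok[2] changes a conserved cysteine of a protein of full length. The study states that the acetyltransferase function is abolished in both mutant proteins, and also calls that of enok[2] compromised. The selection of clones is for the germline cells, whereas the follicle cells around them are somatic. Follicle cells of the mutants came from females that carried the enok allele, and their own genotype was not examined here.

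The insect eggshell is secreted by the follicle cells that surround each oocyte. The inner vitelline membrane is laid down first, from proteins of the Vm genes, and the chorion is added over it during the last stages from proteins of the Cp genes. Chorion genes lie in clusters that follicle cells of Drosophila amplify before they transcribe them, which lets a short late stage yield large amounts of messenger RNA. In ovaries, small RNAs from 3′ UTRs can be PIWI-interacting RNAs (piRNAs) made from messenger RNAs, but fragments of abundant messenger RNAs can have the same sizes. Read lengths were not analysed here, so which of these the reads were was not tested.

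In the dm3 genome of the deposited identifiers, Cp18, Cp15 and Cp19 lie on chromosome arm 3L on the forward strand, with 3′ UTR starts at 8720628, 8722046 and 8723619. The start of Cp15 is thus 1418 nt after that of Cp18, and the start of Cp19 is 1573 nt after that of Cp15. Cp36 and Cp38 lie on the X chromosome, forward, with starts at 8374334 and 8377094. Vm26Ab (forward, start 5957573), Vm26Aa (reverse, start 5959596) and Vm34Ca (reverse, start 13411141) lie on arm 2L. The Ensembl BDGP6 annotation gives 3′ UTR lengths of 121 nt for Cp15, 86 nt for Cp18 and Cp19, 223 nt for Cp36, 56 nt for Vm26Ab and 85 nt for Vm34Ca. Cp38 has a UTR of 251 nt and a shorter one of 114 nt, and Vm26Aa has one of 238 nt and a shorter one of 134 nt. The shorter UTR lies inside the longer one of the same gene.

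Levels are given as abundance, the value that the authors normalized to the microRNAs of the same library. In each library the low values were spaced by the value of 1 read, between 0.271 and 0.486, so abundances of the eggshell genes could be turned back into reads. Cp38 and Vm26Aa have 2 rows each, and 20 of the 36 values of these rows lay within 0.05 of a whole number of reads, against 17 of the 18 sums of both rows of a gene. How reads were assigned to rows that overlap was not tested, and levels of these genes are given as the sum. Of the 63 values below 1500 reads (8 genes in 9 libraries without Cp15), 62 lay within 0.05 of a whole number of reads. The summed sense abundance of all 3′ UTRs was 26392 to 31774 per library. The study's text calls its replicates independent, and neither it nor the labels say whether they came from separate flies, so p-values measure the spread between these libraries, which may be technical.

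Cp15 gave by far the most sense small RNA of the 8 genes. Among the 4601 distinct 3′ UTR features of the table its mean over the 9 libraries, 3438, was the highest, and the next feature averaged 752. Cp15 encodes a small chorion protein of the cluster on arm 3L. Its abundance was 3438, 5594 and 2870.4 in the enok2 libraries, 967, 2251 and 3007 in the enok1 libraries, and 5542, 4590.0 and 2682 in the WT libraries. The lowest WT library lay below the highest enok1 library, and the enok2 and WT ranges overlapped almost wholly. Cp15 alone made up 9.42% to 18.2% of all sense 3′ UTR abundance in enok2, 3.66% to 9.46% in enok1 and 9.75% to 19.4% in WT. With 3565 to 13847 reads per library, counting error was at most 1.67% of any value, far below the spread between replicates (SD 1437 in enok2, 1031 in enok1 and 1456 in WT, n = 3 each).

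Cp18, the neighbour of Cp15 in the same cluster, varied most. Its abundance was 394, 189 and 160.5 in enok2, 133, 16.3 and 91.8 in enok1, and 491, 353 and 367 in WT. All 3 enok1 libraries lay below every enok2 and every WT library. The lowest value, in enok1 replicate 2, came from 43 reads, with an exact 95% Poisson interval of 31.1 to 57.9 reads, against 489 and 227 reads in the other enok1 libraries. Intervals of this kind cover counting error only. Cp18 thus spanned 30.2-fold over the 9 libraries, whereas Cp15 spanned 5.78-fold.

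Cp19, on the other side of Cp15, had 118, 68.95 and 45.9 in enok2, 111, 26.1 and 36.0 in enok1, and 245, 109 and 196 in WT. Replicate 1 was the highest in each group, WT included, and in both mutants it reached the lowest WT library. Its mean was 77.5 ± 36.7 in enok2, 57.8 ± 46.5 in enok1 and 183 ± 69.0 in WT (SD, n = 3 each).

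Cp36 and Cp38 encode major chorion proteins of the cluster on the X chromosome. Cp36 had 58.2, 75.75 and 53.4 in enok2, 56.4, 39.0 and 43.7 in enok1, and 92.85, 66.6 and 105 in WT. It was the steadiest of the 8 genes, at 2.70-fold between its lowest and highest library, and no enok1 library reached a WT library. Cp38 had 302, 154 and 96.9 in enok2, 273, 83.7 and 101 in enok1, and 349, 148 and 294.5 in WT, and its 3 groups overlapped. As for Cp18 and Cp19, replicate 1 of each group, WT included, stood above the other replicates of Cp38.

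The vitelline membrane genes were lower. Vm26Aa, which encodes a major vitelline membrane protein, had 84.2, 62.15 and 37.3 in enok2, 38.2, 15.5 and 19.0 in enok1, and 54.4, 105 and 97.3 in WT. Vm26Ab, whose product is also a structural protein of that layer, had 16.55, 9.71 and 7.06 in enok2, 5.43, 4.92 and 6.87 in enok1, and 13.2, 23.5 and 17.5 in WT. The enok1 libraries of Vm26Ab lay below every library of the other groups. Vm34Ca, another vitelline membrane protein gene, had 20.3, 18.9 and 9.81 in enok2, 8.14, 6.06 and 10.1 in enok1, and 11.6, 21.1 and 19.6 in WT. For both Vm26Aa and Vm34Ca the enok1 libraries lay below WT, but the highest enok1 value exceeded the lowest enok2 value. These genes rested on few reads, namely 18 to 35 in enok2, 13 to 20 in enok1 and 33 to 59 in WT for Vm26Ab, and 25 to 43, 16 to 30 and 29 to 53 for Vm34Ca in the same groups.

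**Figure D1:**
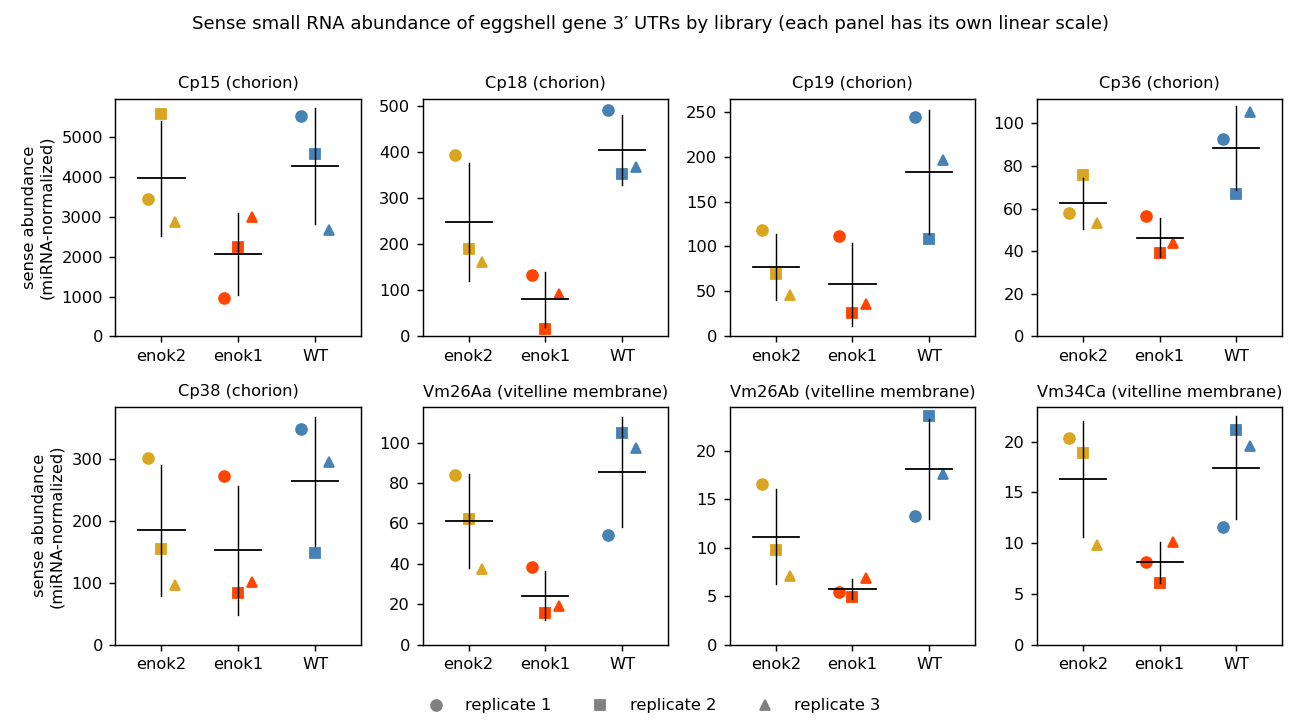
Sense abundance (y axis, miRNA-normalized, linear and starting at 0, with its own range in each panel) of the 8 eggshell genes by group (x axis); points are libraries, horizontal bars are group means and vertical lines span 1 SD on either side. The enok1 points of Cp18, Cp36 and the 3 vitelline membrane genes sit below every WT point, while those of Cp15, Cp19 and Cp38 overlap with WT.

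The libraries at the ends of these ranges were often the same. Enok1 replicate 2 was the lowest of the 9 libraries for 7 of the 8 genes, and Cp15 was the exception, with its lowest value in enok1 replicate 1. The highest library was enok2 replicate 2 for Cp15, WT replicate 1 for Cp18, Cp19 and Cp38, WT replicate 3 for Cp36 and WT replicate 2 for all 3 vitelline membrane genes. WT replicate 1 was the lowest WT library for Vm26Aa, Vm26Ab and Vm34Ca, although it was the highest for 3 chorion genes. All 8 genes varied more between replicates than the typical feature. Their SD within groups was 0.29 (Cp36) to 1.00 (Cp18) on the log2(abundance + 1) scale, against a median of 0.24 over the 298 features tested.

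The profile of Cp15 over the libraries differed from those of Cp18, Cp19 and Cp38, and less from that of Cp36. Its abundance over that of Cp18 was 8.72, 29.5 and 17.9 in enok2, 7.29, 138 and 32.8 in enok1, and 11.3, 13.0 and 7.31 in WT. In enok1 replicate 1, Cp15 was 1.67 below its mean over the 9 libraries on the log2 scale, while Cp19 and Cp38 were 0.40 and 0.63 above theirs. In enok1 replicate 3, Cp15 was 0.03 below its mean and Cp19 was 1.20 below. Profiles over the 9 libraries were also compared by the root mean square of their differences on the log2 scale, each profile centred on its own mean (0 for identical profiles). Cp15 lay at 1.27 from Cp18, 1.13 from Cp19 and 1.05 from Cp38, and nearer to Vm34Ca (0.62), Vm26Ab (0.65) and Cp36 (0.69), with a median of 0.80 over all features tested. The genes outside the list with profiles most like that of Cp15 were Sod3, which encodes an extracellular superoxide dismutase (0.52), the autophagy gene Atg8a (0.54) and Psi, which encodes an RNA-binding splicing factor (0.57).

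Vm26Aa, in contrast, lay nearest to the other vitelline membrane genes, at 0.40 from Vm26Ab and 0.44 from Vm34Ca, followed by Cp36 (0.61), Cp19 (0.64), Cp38 (0.68), Cp18 (0.77) and Cp15 (0.90), with a median of 0.96 over all features. Outside the list its nearest profiles were those of CG13083 (0.44), Sod3 (0.65) and CG43134 (0.69). These distances describe 9 libraries and carry no test.

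**Figure D2:**
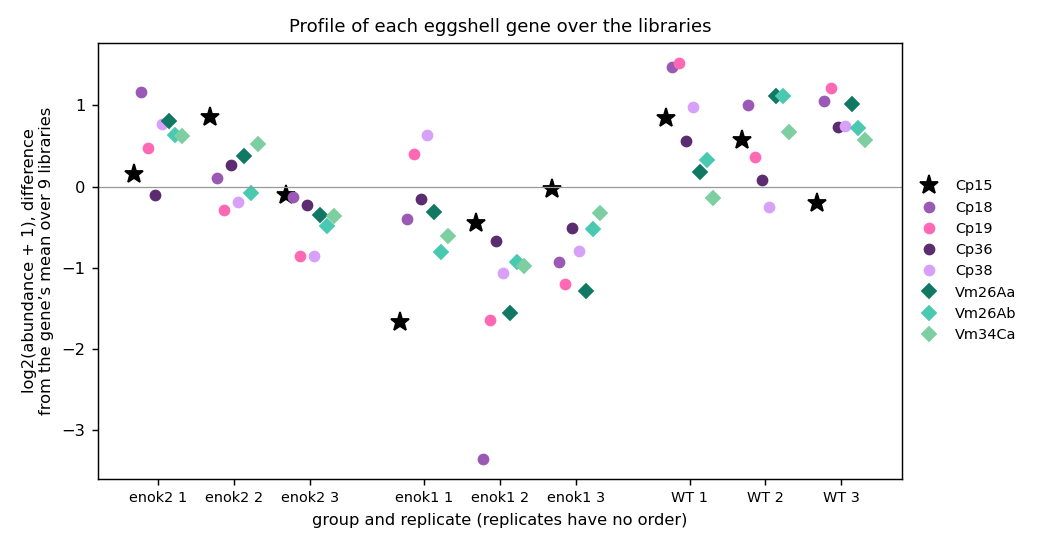
Difference of log2(abundance + 1) from the gene's own mean over the 9 libraries (y axis) for each library (x axis, grouped as enok2, enok1 and WT); stars are Cp15, circles the other chorion genes and diamonds the vitelline membrane genes. In enok1 replicate 1 Cp15 lies 1.67 below its mean and Cp38 lies 0.63 above, and in enok1 replicate 2 Cp18 lies farthest down.

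Chorion genes stood above vitelline membrane genes in most libraries. Summed over genes, chorion abundance exceeded vitelline membrane abundance 35.6-, 67.0- and 59.6-fold in enok2, 29.7-, 91.1- and 91.1-fold in enok1, and 84.8-, 35.3- and 27.1-fold in WT. The ratio therefore differed as much between replicates as between groups. Cp15 set most of it, since without Cp15 the ratio was 7.20, 5.38 and 6.59 in enok2, 11.1, 6.23 and 7.56 in enok1, and 14.9, 4.53 and 7.16 in WT. In 7 of the 9 libraries every chorion gene exceeded every vitelline membrane gene. The exceptions were enok2 replicate 1 and WT replicate 2, in which Cp36 lay below Vm26Aa.

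Averaged over the 9 libraries, the order of abundance was Cp15, Cp18, Cp38, Cp19, Cp36, Vm26Aa, Vm34Ca and Vm26Ab. Cp15 exceeded Cp18, Cp38 exceeded Cp19, and Vm26Aa exceeded Vm34Ca in 9 of 9 libraries. Other neighbours changed places. Cp18 exceeded Cp38 in all 3 enok2 and all 3 WT libraries and in 0 of 3 enok1 libraries, and Cp19 exceeded Cp36 in 1 enok2, 1 enok1 and all 3 WT libraries. Vm34Ca exceeded Vm26Ab in all 6 mutant libraries and in 1 of the 3 WT libraries, where the pair differed by few reads.

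Because a longer UTR can yield more reads, levels were also scaled to 100 nt of the longest UTR of each gene. On this length scale Cp15 averaged 2841 per 100 nt, Cp18 284, Cp19 123, Cp38 79.7, Cp36 29.5, Vm26Aa 23.9, Vm26Ab 20.8 and Vm34Ca 16.4. Cp15 stayed above Cp18 and Cp38 above Cp36 in 9 of 9 libraries. Cp19 exceeded Cp38 in 8 of 9, so this pair stood in the opposite order per length. Cp36 and Vm26Aa kept their order in 7 of 9 libraries and Vm26Aa and Vm26Ab in 6 of 9, and these 3 genes had overlapping ranges per length in enok2 and in WT, while in enok1 Cp36 (17.5 to 25.3) lay above Vm26Aa (6.53 to 16.1) and Vm26Ab (8.79 to 12.3). The 5 chorion genes all exceeded the 3 vitelline membrane genes per length in the same 7 libraries.

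**Figure D3:**
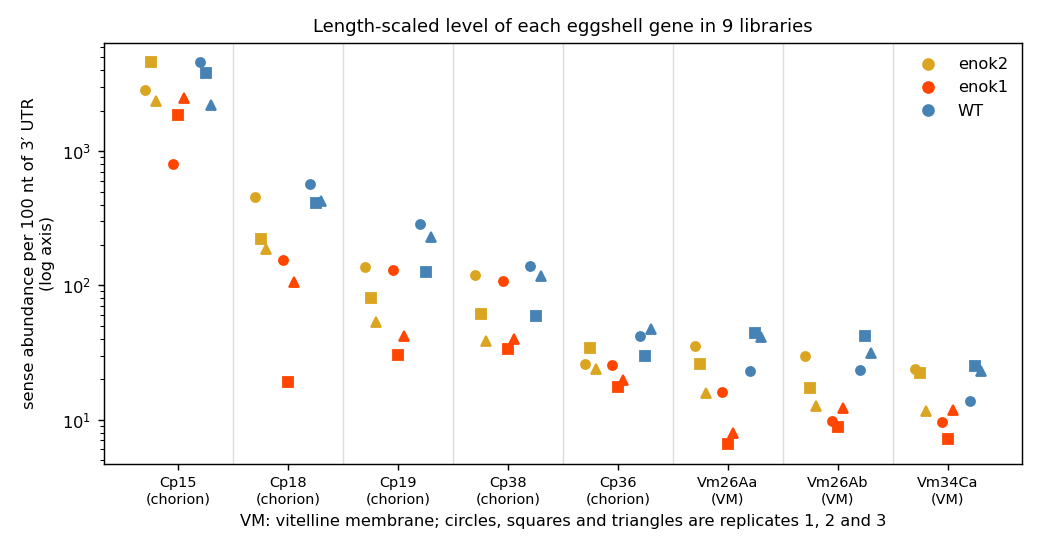
Sense abundance per 100 nt of 3′ UTR (y axis, log scale) of the 8 genes (x axis, in order of their mean) in the enok2, enok1 and WT libraries. Cp15 stands above all other genes in each library, and Cp36 shares its range with Vm26Aa and Vm26Ab in enok2 and WT.

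**Figure D4:**
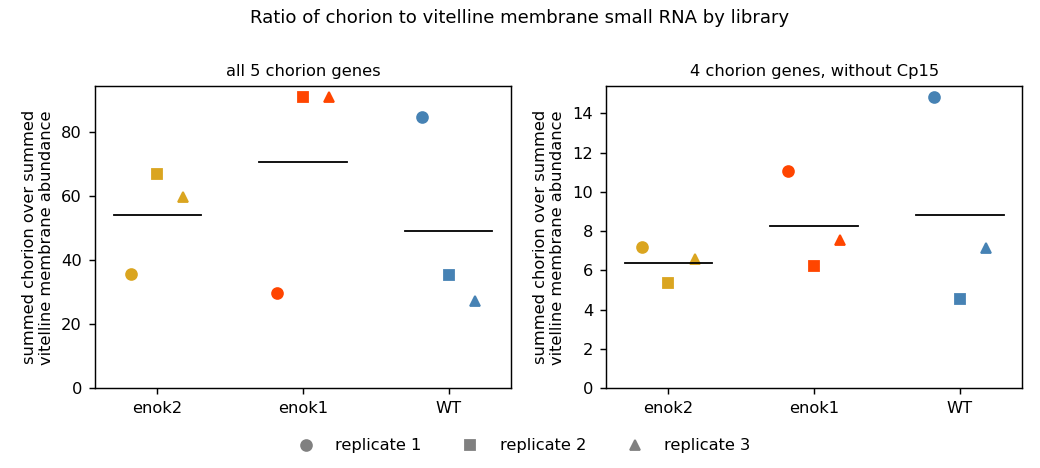
Summed chorion over summed vitelline membrane abundance (y axis, linear) by group (x axis), with all 5 chorion genes at left and without Cp15 at right; points are libraries and bars are group means. The groups overlap in both panels, and the values at right span 4.53 to 14.9.

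On the antisense strand the 8 genes gave 7 reads in the 9 libraries together, against about 90568 on the sense strand, which is 0.00773% of all their reads (exact Clopper-Pearson 95% interval 0.00311% to 0.0159%). This interval covers counting error of the pooled reads only, not the spread between libraries or genes, and Cp15 gave 74821 of the sense reads. The 7 antisense reads were 3 in enok2 (all Cp15), 2 in enok1 (1 each of Cp19 and Vm34Ca) and 2 in WT (1 each of Cp15 and Cp18). By gene the share was 0.00535% for Cp15, 0.0186% for Cp18, 0.0412% for Cp19 and 0.325% for Vm34Ca, the last from 1 read against 307. Cp36, Cp38, Vm26Aa and Vm26Ab had 0 antisense reads. Taking 3 reads as the limit that a count of 0 allows, their antisense share could be up to 0.202% for Cp36, 0.0649% for Cp38, 0.238% for Vm26Aa and 1.17% for Vm26Ab. Over all 8510 features the antisense share of abundance was 5.35%. For the 288 other features tested on the sense strand the median share was 0.176%, and 51.7% of them lay under 0.2%. No eggshell gene reached a mean of 10 on the antisense strand. Without that filter, limma called 0 of the 8 genes in each of the 3 comparisons, and 0 had an unadjusted p under 0.05, which at 7 reads in all says nothing about a difference.

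The study asked how Enok acts in the silencing of transposons and in the transcription of piRNA clusters. It describes the piRNAs of genic regions as similar between WT and the mutants, and its text names no eggshell gene. Against WT, 7 of the 8 eggshell genes were lower in enok1 on the sense strand. They were the chorion genes Cp15, Cp18, Cp19 and Cp36 and all 3 vitelline membrane genes, and Cp38 did not pass. Over all 298 features tested, 6.71% were called lower in this comparison and 18.5% higher. The groups did not overlap for 5 of the 8 genes (Cp18, Cp36, Vm26Aa, Vm26Ab and Vm34Ca), against 9.4% of all features with enok1 below WT. The median difference of the 8 genes was -1.30 on the log2(abundance + 1) scale, against 0.11 over all features. Vm26Ab and Vm34Ca averaged 5.74 and 8.10 in enok1 and reached the required mean of 10 only through the other groups, so their passing of the filter was not independent of the difference.

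The largest difference in enok1 was that of Cp18, the lowest of all 298, at -2.74 (SE 0.56, limma adjusted p = 0.00386). It was -1.85 without enok1 replicate 2 and -3.32 without enok1 replicate 1, and passed the test in both. Cp19 differed by -1.85 (SE 0.45, limma adjusted p = 0.00943), or by -1.44 without enok1 replicate 2 and -2.46 without enok1 replicate 1, and Vm26Aa by -1.79 (SE 0.32, limma adjusted p = 0.00197). For Vm26Ab the value was -1.48 (SE 0.23, limma adjusted p = 0.000754). The smaller ones were -1.13 for Cp15 (SE 0.38, limma adjusted p = 0.0479), -1.0 for Vm34Ca (SE 0.25, limma adjusted p = 0.0115) and -0.91 for Cp36 (SE 0.23, limma adjusted p = 0.0108). Cp38 differed by -0.94 with a limma adjusted p of 0.125 and a 95% interval of -1.84 to -0.04. With the rows of a gene summed, Cp38 differed by -0.90 (limma adjusted p = 0.129) and Vm26Aa by -1.82 (limma adjusted p = 0.00243). On the linear scale the mean in enok1 was 19.9% of the WT mean for Cp18, 28.4% for Vm26Aa, 31.6% for Cp19, 31.7% for Vm26Ab, 46.4% for Vm34Ca, 48.6% for Cp15, 52.5% for Cp36 and 57.8% for Cp38.

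The count of 7 depended on the fit. Among 19 alternatives it was 1 of 8 (Vm26Ab) both with each feature's own variance and without the filter on low values, 3 after scaling to the sense piRNA clusters and 4 after scaling to the flam cluster. In these fits, in the same order, 12.8%, 1.74%, 43% and 27.9% of all features were called in either direction. Vm26Ab was called under all 19, Cp18 and Vm26Aa under 17 each, Cp19 under 15, and Cp36 and Vm34Ca under 14 each. Cp15 was called under 7 and lost its call without enok1 replicate 1, enok1 replicate 2, WT replicate 1 or WT replicate 2. Vm34Ca lost it without enok1 replicate 2 or WT replicate 2, and Cp36 without WT replicate 3, while Cp38 was called without enok1 replicate 1 or WT replicate 2.

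Against the same 3 WT libraries, 1 of the 8 genes was lower in enok2, namely Cp19 at -1.26 (SE 0.37, limma adjusted p = 0.0385), although its groups overlapped. Over all features 5.7% were called lower and 17.8% higher in enok2. All 8 genes overlapped with WT, while 12.1% of all features lay below WT without overlap. The values for the other chorion genes were -0.80 for Cp18 (95% interval -1.51 to -0.09), -0.62 for Cp38 (-1.56 to 0.32), -0.48 for Cp36 (-0.96 to -0.0048) and -0.10 for Cp15 (-0.81 to 0.61). For the vitelline membrane genes they were -0.70 for Vm26Ab (-1.37 to -0.03), -0.49 for Vm26Aa (-1.22 to 0.24) and -0.11 for Vm34Ca (-0.79 to 0.57). Their limma adjusted p-values lay between 0.103 and 0.853. The median of the 8 was -0.55, against 0.06 over all features.

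The call of Cp19 in enok2 was lost without enok2 replicate 2, enok2 replicate 3, WT replicate 1 or WT replicate 3. Without enok2 replicate 1 there were 3 calls (Cp18, Cp19 and Vm26Ab), and without WT replicate 2 there were 2 (Cp19 and Cp36). Of all features, 14.1% and 20.8% were called in either direction in these fits.

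Set against each other, enok2 was higher than enok1 for the mean of each of the 8 genes, and 0 of 8 passed the test in limma, as did 0% of all 298 features. At an unadjusted p under 0.05 there were 5 of the 8 genes, against 7.05% of all features in either direction, and with each feature's own variance 0 of 8. The groups did not overlap for Cp18 and Vm26Ab, with enok2 above enok1, which held for 3.02% of all features. For Vm26Ab this was nearly a tie, with a highest enok1 value of 6.87 (17 reads) and a lowest enok2 value of 7.06 (18 reads). Here too Vm26Ab and Vm34Ca, both among the 5, had passed the filter through groups other than enok1. The difference was 1.94 for Cp18 (95% interval 0.57 to 3.31, unadjusted p = 0.00973 and adjusted p = 0.322 in limma), the highest of all 298. For Cp18 it was 1.05 without enok1 replicate 2 and 2.52 without enok1 replicate 1. For Cp19 it was 0.18 without enok1 replicate 2 and 1.20 without enok1 replicate 1, and neither gene passed the test in these fits. With all libraries the difference was 1.30 for Vm26Aa (0.56 to 2.04, limma adjusted p = 0.28), 1.03 for Cp15 (0.19 to 1.86, limma adjusted p = 0.366), 0.89 for Vm34Ca (0.29 to 1.49, limma adjusted p = 0.322) and 0.78 for Vm26Ab (0.20 to 1.36, limma adjusted p = 0.34). The intervals of Cp19 (0.60, from -0.44 to 1.64), Cp36 (0.42, from -0.03 to 0.87) and Cp38 (0.32, from -0.69 to 1.33) included 0. The median of the 8 was 0.84, against -0.03 over all features.

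Without enok2 replicate 3, 2 of the 8 genes passed the test of enok2 against enok1 (Vm26Aa and Vm34Ca, limma adjusted p = 0.0169 each), and the limit on Vm34Ca from the filter holds for this call as well. Without enok1 replicate 1, 1 did (Vm26Aa, limma adjusted p = 0.0312). Of all features, 1.01% were called without enok2 replicate 3 and 0.671% without enok1 replicate 1. The 3 comparisons share libraries in pairs, so a library that stands apart enters 2 of them.

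**Figure D5:**
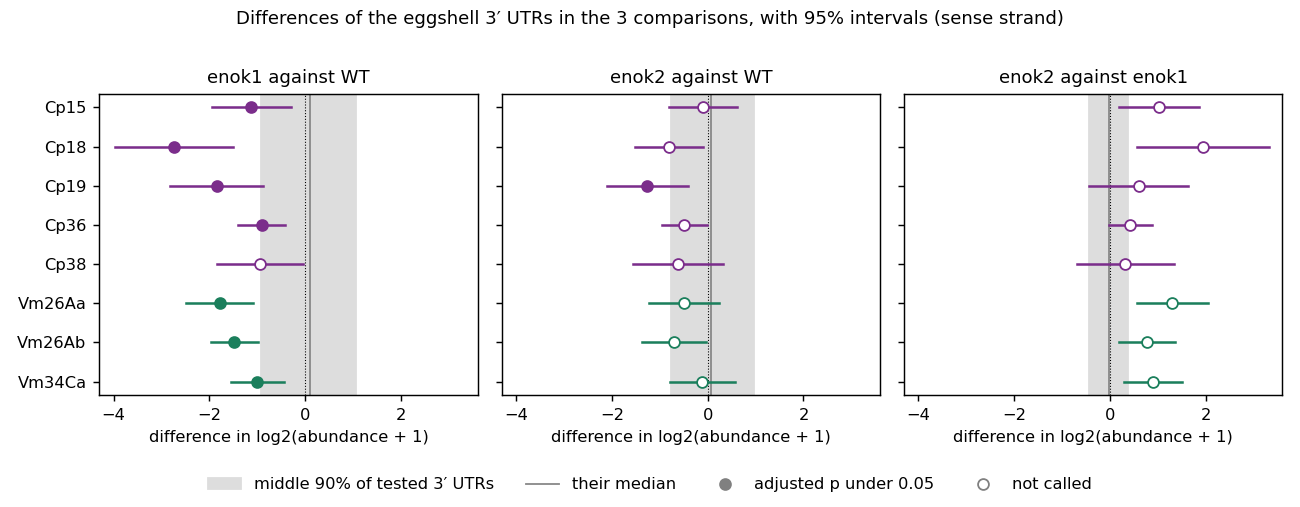
Difference in log2(abundance + 1) (x axis) of the 8 genes (y axis) in the 3 comparisons, with 95% intervals; filled points passed at an adjusted p under 0.05, purple is chorion and green is vitelline membrane, and the grey band holds the middle 90% of the 298 features tested. In enok1 against WT 7 of the 8 points are filled, in enok2 against WT 1, and in enok2 against enok1 none.

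Of 19 further eggshell genes listed, 6 had a row matched by gene symbol, and 0 of these had a feature with a mean of at least 10. With all rows of a gene summed, dec (dec-1, which encodes eggshell proteins cleaved during assembly) reached that mean. It had 49.6, 42.2 and 19.6 in enok2, 25.2, 12.9 and 11.7 in enok1, and 25.2, 60.3 and 53.5 in WT. Over the 481 summed genes tested, dec differed by -1.41 in enok1 against WT (SE 0.34, limma adjusted p = 0.0107), by -0.32 in enok2 against WT (limma adjusted p = 0.597) and by 1.09 in enok2 against enok1 (limma adjusted p = 0.243). The means of all 6 genes were below WT in both mutants, at 54.1% to 80.2% of WT in enok2 and 26.6% to 59.6% in enok1. Cp16, which neighbours Cp19 in the cluster on arm 3L and was picked here after its values were seen, averaged 3.98 in enok2, 1.96 in enok1 and 7.36 in WT, far below Cp15.

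Markers of the other cells in an egg chamber were read beside these genes, with levels summed over the rows of a gene and tests made on single rows. Of 3 yolk protein genes, which follicle cells and fat body express, Yp1 had 26.5, 28.65 and 23.5 in enok2, 15.2, 39.4 and 39.6 in enok1, and 25.2, 103 and 66.8 in WT. Yp1 did not pass in enok1 (-0.93, limma adjusted p = 0.171) or enok2 (-1.07, limma adjusted p = 0.103), and the 3 genes together had 33.0 to 37.4 in enok2, 18.4 to 52.3 in enok1 and 31.2 to 124 in WT. In WT, Yp1 and dec shared with the vitelline membrane genes a lowest value in replicate 1 and a highest in replicate 2. Of 5 somatic follicle cell genes, 3 had a row matched by gene symbol, and slbo and Cad99C had none. The sums of these 3 genes were 109 to 126 in enok2, 103 to 157 in enok1 and 102 to 130.3 in WT. The only one tested, tj, which encodes a transcription factor of somatic gonad cells, differed by 0.16 in enok1 (limma adjusted p = 0.611) and by 0.04 in enok2 (limma adjusted p = 0.887). The sums were almost all tj, whose WT mean was 111, against 2.29 for Fas3 and 2.44 for br. Of 10 germline genes, 5 had a row matched by gene symbol (bcd, grk, vas, aub and pgc had none). The sums of the 5 matched genes were 56.7 to 68.9 in enok2, 64.7 to 68.6 in enok1 and 30.5 to 42.9 in WT. The largest parts of these sums in WT were osk and CycB, with means of 17.9 and 9.85. Only piwi had a mean below WT in a mutant, at 1.85 in enok2 against 2.24 in WT. The gene osk, the determinant of the posterior pole of the oocyte, was higher in enok1 by 0.90 (limma adjusted p = 0.0131) and in enok2 by 0.71 (limma adjusted p = 0.0412). CycB, which encodes the mitotic cyclin B, reached the mean of 10 only as a sum of rows. That sum was 18.9, 12.1 and 19.6 in enok2, 18.7, 17.0 and 14.6 in enok1 and 9.6, 10.8 and 9.2 in WT, with every enok library above the WT ones. It was higher by 0.69 in enok2 (limma adjusted p = 0.042) and by 0.71 in enok1 (limma adjusted p = 0.0167). In WT the tested row of osk averaged 8.93 and the sum of CycB 9.85. Both reached the mean of 10 only through the mutants, so their passing of the filter was not independent of the difference. These bulk libraries cannot tell fewer late egg chambers or follicle cells from less RNA per cell, and the part of these markers in the eggshell differences was not tested.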

How the data were processed

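The authors sequenced small RNAs cut from a gel and trimmed the reads with Trimmomatic, per the submitters' processing notes. According to the study's methods they mapped the reads to dm3 with piPipes, using unique mappers without mismatches. The deposited values are a signal per 3′ UTR row and strand, normalized by the authors to the microRNAs of each library, so a change in microRNAs would move all rows of a library alike. Identifiers give a start without an end. Only gene symbols were taken from a RefSeq table of Release 6 (8313 of 8510 rows matched, 97.7%), and UTR lengths from Ensembl BDGP6.

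Rows with the same position, strand and values were counted once (4601 rows). Rows with a mean of at least 10 over the 9 libraries were tested (298 sense, 23 antisense). The test was limma 3.58.1 in R 4.3.3 on log2(signal + 1), with the 2 groups compared in each fit and no covariate. Differences on this scale understate changes of low rows. P-values were adjusted by Benjamini-Hochberg over the rows of a strand, and rows were called at an adjusted p under 0.05. The fit was tested on simulated data with independent normal values and changes of random sign. That simulation did not model rows that vary together or an uneven split of directions, so it does not check the calls under those conditions.

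The value of 1 read was the spacing of low values. Within 2 to 20 reads, 76.1% to 86.0% of the values of genes with 1 row were within 0.05 of a whole read, against 24.5% to 33.8% of rows of genes with several rows and 68.4% to 79.0% of their sums (10% by chance). Clusters of a library held 809951 to 1448090 read equivalents. Because most rows were no whole reads, no count model was used.

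The 8 genes and the marker lists were chosen with earlier results of these data known. All 8 genes are named. Of other listed genes, those with a mean of at least 10, in 1 row or summed over rows, were given values, and 3 genes with the nearest profile were named for the chorion and the vitelline membrane gene with the highest mean. Summing the rows of a gene was added after seeing the data.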

Additional observations from a re-analysis of the deposited data

How the results depend on the processing

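Of the 152 values for single genes recomputed per comparison, 119 for enok1 against WT kept their direction and side of the threshold, as did 132 for enok2 against WT and 147 for enok2 against enok1. For enok1 against WT, the 7 genes called became 1 without the filter (1.74% of 4601 features called in either direction) and 1 with each feature's own variance (12.8% of features). They became 3 with scaling to the median of ratios of sense clusters (43%) and 4 with scaling to sense flam (27.9%). When 1 library was left out they became 5 to 7 (19.1% to 24.5%). Scaling to clusters moved the median difference of all features to 0.41 and the split of calls to 116 higher and 12 lower, and scaling to the other 3′ UTRs moved them to -0.11 and to 38 higher and 36 lower, against 0.11 and 55 higher and 20 lower. The study reports lower piRNAs from many clusters in both mutants. The cluster scaling factors were 0.737 to 1.05 in the mutants and 1.07 to 1.17 in WT, so this reference itself differed between genotypes. The factors of the other 3′ UTRs differed too, in the opposite direction, at 0.972 to 1.12 in the mutants and 0.857 to 0.951 in WT. That scaling kept 7 genes called in enok1 against WT (24.8% of features called). The flam factors overlapped between genotypes, at 0.853 to 1.13 in the mutants and 0.906 to 1.10 in WT. For enok2 against WT the split was 53 higher and 17 lower, against 73 and 10 with cluster scaling and 40 and 40 with scaling to the other 3′ UTRs. There the 1 gene called became 0 with a filter at a mean of 1, without the filter, with scaling to clusters or to flam, with all 3 groups in 1 fit and with own variances, and 0 to 3 when 1 library was left out. Those left-out fits called 13.4% to 20.8% of all features. For enok2 against enok1, 0 called became 0 to 2 when 1 library was left out (0% to 1.01% of all features). Some small differences changed sign. In enok2 against WT, the difference became 0.087 for Cp15 and 0.070 for Vm34Ca when the libraries were scaled to the median of ratios of sense clusters. When 1 library was left out, that of Cp15 was -0.41 to 0.12 (above 0 without enok2 replicate 3 or WT replicate 1) and that of Vm34Ca was -0.36 to 0.20 (above 0 without enok2 replicate 3 or WT replicate 2). The difference of Cp38 in enok2 against enok1 was then -0.11 to 0.85 (below 0 without enok2 replicate 1 or enok1 replicate 2). The cause was not tested.

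Replicate numbers were not taken to pair the libraries, because the labels name no shared batch. The deviations of libraries with the same number correlated at -0.01 to 0.22 across features. Those of libraries with different numbers correlated at -0.23 to 0.13. Pairs of replicate 1 gave 0.11, 0.17 and 0.22, and whether replicates of 1 number share a batch was not tested. With a replicate block, 7 genes were called in enok1 against WT (Cp38 in place of Cp15), 2 in enok2 against WT (Cp18 and Cp19) and 0 in enok2 against enok1. Of all features, 26.2%, 23.2% and 0% were called in these fits. Not every library correlated best with its own number. With 13 to 59 reads in a library, Vm26Ab and Vm34Ca are limited by depth.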
